A study of Arabidopsis thaliana with 6 samples.

Results

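The auxin response and transport genes are 52 of the 32313 genes in the count table, taken by gene code: 25 Aux/IAA repressors, 7 GH3 conjugating enzymes, 7 small auxin up RNA (SAUR) genes, 4 activator-type auxin response factors (ARFs), 5 PIN efflux carriers and 4 influx carriers of the AUX1/LAX family. Membership rests on gene family and not on a measured value, and all 52 codes carry the listed name in the TAIR10.1 annotation. The counts are RNA-seq reads per gene from Arabidopsis thaliana seedlings in 2 groups of 3 libraries. The first group is line BP12-2, in the Columbia ecotype and labelled as a TOR knockdown, and the second is Columbia wild type (WT). BP12 lines express the yeast protein FKBP12, through which rapamycin can bind and inhibit the plant kinase TOR (target of rapamycin), a regulator of growth. All seedlings were 15 days past germination and had 3 days on 0.5 MS medium with 10 µg/ml rapamycin. Rapamycin was thus common to both groups, BP12-2 is a single line, and seedlings without the drug were not analysed here, so a difference between the lines that exists without rapamycin cannot be told apart from a response to it.

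Auxin acts by removing repressors. The hormone joins an F-box receptor of the TIR1/AFB family to an Aux/IAA protein, the Aux/IAA protein is degraded, and the ARF it held back can act on promoters with auxin response elements. Aux/IAA, GH3 and SAUR genes are themselves rapid targets of this switch, and their transcripts are commonly read as a gauge of auxin response, while PIN and AUX1/LAX proteins carry auxin out of and into cells.

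Library totals ran from 6706610 to 17092773 counts. Whether a group's libraries were grown as separate batches of seedlings is not in the labels, so p-values cover only the spread among these 6 samples, and that spread may be technical. The TOR transcript (AT1G50030) was at 32.4, 27.8 and 32.6 CPM in BP12-2 and 34.3, 35.9 and 38.5 CPM in WT. It lay below WT in every BP12-2 library, as did 12.2% of the 19436 genes tested. Its log2 fold change was -0.22 ± 0.10 (SE, 3 libraries per group), with an edgeR adjusted p of 0.292. Rapamycin with FKBP12 acts on the kinase itself, so the level of this transcript cannot check the knockdown label. BP12-2 replicate 1 and WT replicate 3 stood apart in circadian clock transcripts: 7 evening clock genes summed to 374, 173 and 173 CPM (counts relative to library size, here scaled by TMM factors) in BP12-2 replicates 1 to 3 and 181, 168 and 395 CPM in WT replicates 1 to 3. These 2, chosen with results of these same data known, are called evening-like below. Leaf markers were abundant in all libraries, and 6 of them summed to 38160 to 40850 CPM in BP12-2 and 30650 to 32110 CPM in WT. In 3 of the 6 every BP12-2 library lay above every WT library, beside 12.1% of all genes tested. Of 10 tested root markers 8 had positive log2 fold changes, beside 50.8% of all genes. At an unadjusted p under 0.05 in the edgeR test 3 of the 10 were higher in BP12-2, beside 9.03% of all genes. EXPA7, a root hair gene, had the largest log2 fold change of the root markers at 0.80 ± 0.18 (SE), with an edgeR adjusted p of 0.101. All 11 root markers summed to 274 to 323 CPM in BP12-2 and 229 to 309 CPM in WT, with WT replicate 1 at the top of the WT range. In whole seedlings fewer cells of a type and less RNA per cell cannot be told apart, and the part of tissue makeup in the values below was not tested. The code in the column names, L08 for BP12-2 and L07 for WT, cannot be told apart from the line either.

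Most auxin genes had somewhat higher values in BP12-2 than in WT, and none passed the test over all genes. Of the 52 genes 42 passed the filter on low counts and were tested. In 16 of the 42 (38.1%) every BP12-2 library lay above every WT library, beside 12.1% of the 19436 genes tested. In 1 of the 42, IAA18, every BP12-2 library lay below every WT library, beside 12.2% of all genes. Log2 fold changes of BP12-2 over WT were positive for 36 of the 42, with a median of 0.26, and for 50.8% of all genes, with a median of 0.01. The edgeR quasi-likelihood test with Benjamini-Hochberg adjustment called 0 of the 42 at an adjusted p of 0.05, beside 0.0669% of all genes (13 genes). At an unadjusted p under 0.05 the same test marked 17 of the 42, beside 18.2% of all genes, and 16 of the 17 were higher in BP12-2, beside 9.03% of all genes. A fit without the filter tested 51 of the 52 and called 0, beside 0.231% of all genes. The smallest adjusted p among the 42 was 0.0793.

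Other tests called some of these genes, each of them higher in BP12-2, and the shares of all genes beside them count genes called higher. DESeq2 called 5, GH3.2, GH3.3, IAA13, AUX1 and PIN3, and called 1.46% of all genes higher. The edgeR exact test also called 5, with SAUR20 in place of PIN3, beside 1.98% of all genes. With a term for the 2 evening-like libraries, the quasi-likelihood test called 9 (GH3.2, GH3.3, SAUR20, SAUR21, IAA13, PIN3, AUX1, LAX2 and LAX3), beside 2.52% of all genes. In the other 4 libraries alone it called 1, GH3.2, beside 0.0206% of all genes. In all 6 libraries limma voom called 0, beside 0.113% of all genes in either direction. In the 4 libraries without the evening-like ones both BP12-2 values lay above both WT values for 23 of the 42, beside 26% of all genes, and below them for 4, beside 25.2%. Without WT replicate 1 the count above WT was 25 of the 42, beside 20% of all genes. GH3.1 and SAUR23 passed the count filter through BP12-2 libraries alone. Without these 2 the count above WT in all 6 libraries was 15 of 40, beside 12.1% of all genes.

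**Figure D1:**
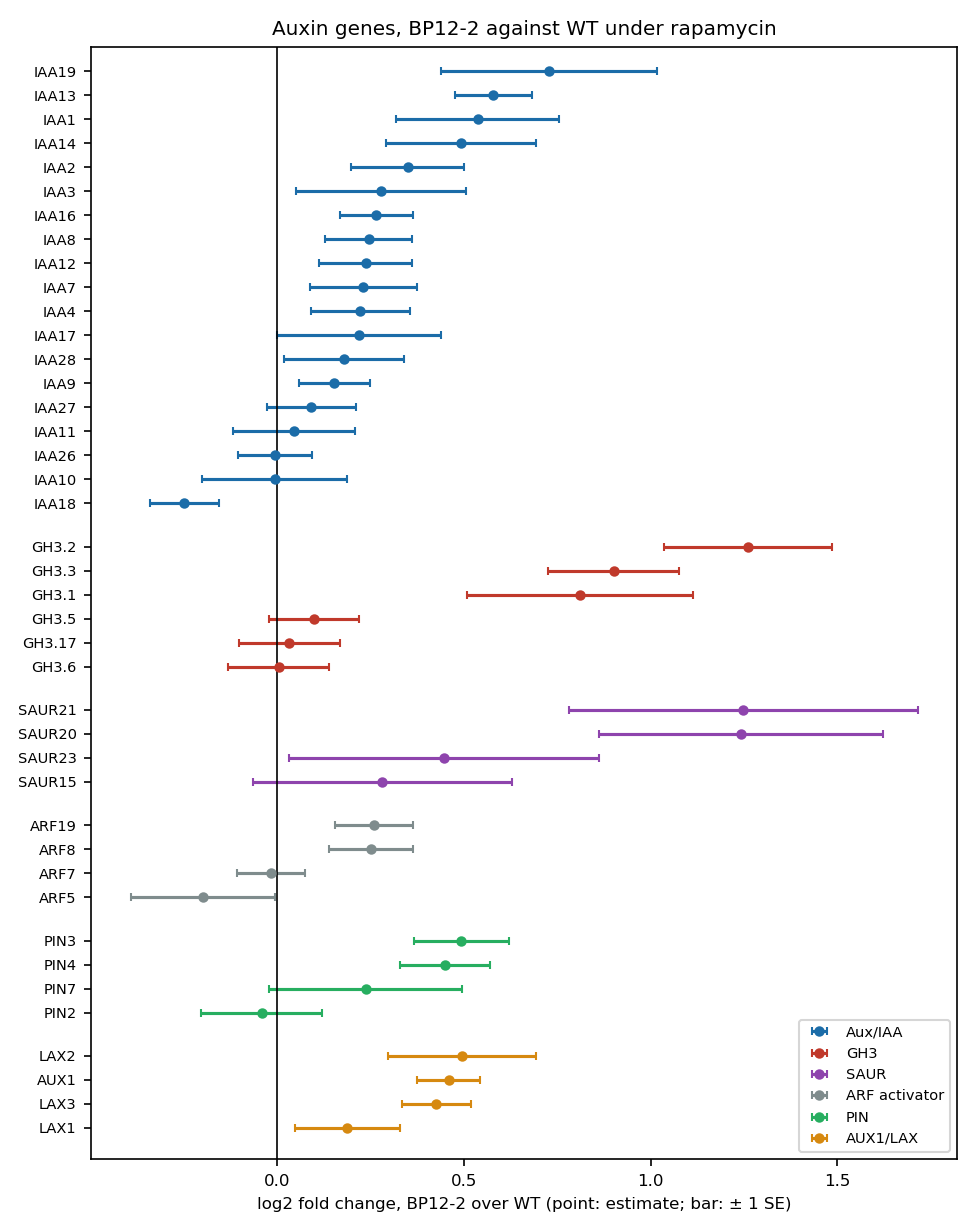
Log2 fold change of BP12-2 over WT from the edgeR fit for 41 of the 42 tested auxin genes, grouped by class, with bars of 1 SE either side (3 libraries per group). GH3.2, SAUR21 and SAUR20 lie farthest right, at 1.26, 1.25 and 1.24, and IAA18 lies farthest left at -0.25.

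Promoters are shown for the 3 tested members with the largest fold changes among those above WT in every library, because auxin response elements are the textbook link between ARFs and these genes. The 300 bases before the annotated start were searched on both strands for TGTCTC (the canonical auxin response element), TGTCGG (a variant known to bind ARFs more tightly in vitro), CACGTG (the G-box of phytochrome-interacting factors) and AAATATCT (the evening element of the clock). Capitals mark matches, none of which overlaps another, and GAGACA is TGTCTC read on the other strand. The sequences are from the RefSeq TAIR10.1 genome, read along each gene: GH3.2 at chr4:17579318-17579617 (plus strand), GH3.3 at chr2:9866563-9866862 (minus strand) and SAUR20 at chr5:5966786-5967085 (minus strand).
GH3.2: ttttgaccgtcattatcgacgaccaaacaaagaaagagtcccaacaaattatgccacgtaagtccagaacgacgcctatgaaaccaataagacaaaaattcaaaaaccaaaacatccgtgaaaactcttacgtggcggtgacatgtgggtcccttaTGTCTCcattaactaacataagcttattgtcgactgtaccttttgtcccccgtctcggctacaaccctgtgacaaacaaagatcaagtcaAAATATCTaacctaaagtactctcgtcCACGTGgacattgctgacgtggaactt
GH3.3: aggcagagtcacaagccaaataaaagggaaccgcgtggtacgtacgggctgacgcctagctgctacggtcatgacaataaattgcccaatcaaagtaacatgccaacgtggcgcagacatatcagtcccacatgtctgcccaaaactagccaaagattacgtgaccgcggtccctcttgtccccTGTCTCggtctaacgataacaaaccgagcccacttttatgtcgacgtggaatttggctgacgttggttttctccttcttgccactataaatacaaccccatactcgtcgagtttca
SAUR20: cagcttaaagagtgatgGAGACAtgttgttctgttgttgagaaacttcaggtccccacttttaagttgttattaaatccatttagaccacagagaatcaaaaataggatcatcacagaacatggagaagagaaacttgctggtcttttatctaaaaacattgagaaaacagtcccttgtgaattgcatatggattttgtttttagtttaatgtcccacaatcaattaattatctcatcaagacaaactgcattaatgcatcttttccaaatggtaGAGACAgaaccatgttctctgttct
In GH3.2 TGTCTC begins 144 bases before the start, AAATATCT 54 and CACGTG 27. In GH3.3 TGTCTC begins 116 bases before the start, and in SAUR20 its matches on the other strand lie 283 and 25 bases before it. TGTCTC was in the window of 16 of the 52 auxin genes (30.8%) and of 12.9% of 26641 counted protein-coding genes. By class it was found in 9 of 25 Aux/IAA, 3 of 7 GH3, 3 of 7 SAUR and 1 of 5 PIN promoters, and in none of the 4 ARF or 4 AUX1/LAX promoters. Of the 16 tested members above WT in every library, IAA1, IAA8, GH3.2, GH3.3 and SAUR20 had it. The others of the 16, among them IAA13, PIN3, PIN4, AUX1 and LAX3, did not. TGTCGG was in 17.3% of the auxin genes and 4.9% of all, CACGTG in 9.62% and 7.2%, and AAATATCT in 5.77% and 5.72%. A match of letters describes the window and is not a bound site.

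Aux/IAA repressors spanned the widest range of levels among genes with counts in the 6 classes. Per kilobase of exon IAA9, a repressor known from leaf development, was the most abundant at 98.6 CPM per kilobase in BP12-2 and 88.7 in WT, followed by IAA8 at 84.8 CPM per kilobase in BP12-2 and 71.6 in WT and IAA16 at 69.8 CPM per kilobase in BP12-2 and 58.1 in WT. At the other end IAA5, IAA6, IAA20, IAA29, IAA30 and IAA31 stayed under the count filter, with 1 to 16 counts per library in BP12-2 and 0 to 13 in WT. Of these 6, IAA29 and IAA31 had every BP12-2 library above every WT library by CPM. At such counts a few reads decide the order, and no share over other genes under the filter was taken. IAA29, known from shade and clock-gated growth, had 9, 6 and 7 counts in BP12-2 and 1, 3 and 4 counts in WT, and was outside the filtered fit. With no filter on low counts its log2 fold change was 1.64 ± 0.56 (SE; edgeR adjusted p = 0.207).

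Receptors grip an Aux/IAA protein by its degron, a short stretch around glycine, tryptophan, proline and proline. Codons for this core were found in all 19 tested Aux/IAA genes and in 3 of the 6 untested ones, and were not found in IAA20, IAA30 and IAA31. Coding bases around the core, with the core in capitals, are shown for IAA19, the tested member of the class with the highest fold change, and IAA18, the member below WT in every library. They lie at chr3:5264301-5264342 (plus strand) for IAA19 and chr1:19306225-19306266 (plus strand) for IAA18 in TAIR10.1.
IAA19: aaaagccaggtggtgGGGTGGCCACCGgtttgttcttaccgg
IAA18: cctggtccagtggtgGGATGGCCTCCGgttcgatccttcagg

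IAA13 (AT2G33310, chromosome 2, 14113025 to 14116089, minus strand, TAIR10.1), close kin of the ARF5 partner IAA12, had the smallest p of the class. It was at 50.3, 53.9 and 55.5 CPM in BP12-2 and 37.9, 37.6 and 31.7 CPM in WT. The groups were apart, and the log2 fold change was 0.58 ± 0.10 (SE, 3 libraries per group; edgeR adjusted p = 0.0793). Its exons overlap 784 bases of AT2G33300 on the opposite strand, which had 0 counts in every library, and IAA3 overlaps 536 bases of AT1G04230. The sources used here do not give the use of strand in counting, so reads of such pairs cannot be told apart.

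IAA19 (AT3G15540, chromosome 3, 5264001 to 5265695, plus strand), a repressor in hypocotyl growth and bending, was at 5.79, 8.12 and 6.23 CPM in BP12-2 and 6.18, 3.12 and 3.19 CPM in WT. WT replicate 1 lay inside the BP12-2 range, so the groups overlap, and the log2 fold change was 0.73 ± 0.29 (SE; edgeR adjusted p = 0.242). IAA1 was at 14.8, 11.4 and 9.89 CPM in BP12-2 and 9.66, 6.24 and 9.03 CPM in WT, a log2 fold change of 0.54 ± 0.22 (SE; edgeR adjusted p = 0.251). IAA14, whose stabilized form blocks lateral root formation, was at 13.0, 8.57 and 8.96 CPM in BP12-2 and 8.37, 6.24 and 7.29 CPM in WT, a log2 fold change of 0.49 ± 0.20 (SE; edgeR adjusted p = 0.256). IAA1 and IAA14 did not overlap, but the lowest BP12-2 library lay close to the highest WT library in each, and without BP12-2 replicate 1 the log2 values were 0.36 for IAA1 and 0.28 for IAA14.

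The abundant repressors differed less. IAA9 was at 228, 199 and 206 CPM in BP12-2 and 182, 198 and 189 CPM in WT, a log2 fold change of 0.15 ± 0.10 (SE), and its lowest BP12-2 library barely exceeded its highest WT library. IAA8 averaged 174 ± 11.1 CPM in BP12-2 and 147 ± 18.1 CPM in WT (SD, n = 3 each) and IAA16 averaged 141 ± 6.25 CPM in BP12-2 and 118 ± 9.56 CPM in WT. IAA18, named after its values were seen, ran the other way at 24.8, 26.3 and 27.3 CPM in BP12-2 and 30.4, 33.1 and 29.7 CPM in WT, a log2 fold change of -0.25 ± 0.09 (SE; edgeR adjusted p = 0.215). The other 11 tested members had log2 fold changes from -0.01 for IAA10 to 0.35 for IAA2, and of these IAA4 lay above WT in every library. Of the 19 tested Aux/IAA genes 16 had positive values, beside 50.8% of all genes, and the median log2 fold change was 0.23. In 7 of the 19 every BP12-2 library lay above every WT library, beside 12.1% of all genes.

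GH3 enzymes join amino acids to auxin and so lower the free hormone. GH3.1, GH3.2 and GH3.3, the less abundant members with counts, lay above WT in every BP12-2 library, while the abundant GH3.5, GH3.6 and GH3.17 overlapped. GH3.4 had 0 counts in all 6 libraries, which allows up to 3 counts a library, or 0.176 to 0.447 CPM, by counting error alone.

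GH3.2 (AT4G37390, chromosome 4, 17579618 to 17582022, plus strand) was at 35.8, 23.6 and 22.1 CPM in BP12-2 and 10.7, 9.37 and 13.7 CPM in WT. The groups did not overlap, and the evening-like library was the highest of each. The fold change was 2.40 (log2 1.26 ± 0.22, SE; edgeR adjusted p = 0.0793). With the term for the evening-like libraries the log2 value was 1.27 ± 0.11 (SE; edgeR adjusted p = 0.00875). That term was chosen from these data, and with it 992 of the 19436 genes tested were called. In the other 4 libraries alone the log2 value of GH3.2 was 1.19 ± 0.14 (SE; edgeR adjusted p = 0.0402).

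GH3.3 (AT2G23170, chromosome 2, 9863855 to 9866562, minus strand) was at 33.5, 31.4 and 22.5 CPM in BP12-2 and 18.2, 14.3 and 14.4 CPM in WT. Its groups did not overlap either, with a fold change of 1.87 (log2 0.90 ± 0.18, SE; edgeR adjusted p = 0.0830). GH3.1 had 25, 13 and 33 counts in BP12-2 and 6, 22 and 18 counts in WT, or 2.12 ± 0.322 CPM in BP12-2 and 1.16 ± 0.437 CPM in WT (SD, n = 3 each).

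GH3.6 was at 158, 114 and 118 CPM in BP12-2 and 128, 132 and 128 CPM in WT, where BP12-2 replicate 1 lay above the WT libraries and the other two below them. GH3.5 was at 119.8, 105 and 107 CPM in BP12-2 and 117, 104 and 89.8 CPM in WT. GH3.17, which joins auxin to glutamate, was at 73.6, 76.6 and 88.3 CPM in BP12-2 and 92.2, 71.7 and 69.9 CPM in WT. Their log2 fold changes were 0.00 ± 0.13, 0.10 ± 0.12 and 0.03 ± 0.13 (SE), and the sign turned for GH3.6 and GH3.17 when single libraries were left out and for GH3.5 in the other 4 libraries alone. Per kilobase GH3.6 stood at 56.0 CPM per kilobase in BP12-2 and 55.8 in WT, against 12.5 CPM per kilobase in BP12-2 and 5.19 in WT for GH3.2 and 13.8 CPM per kilobase in BP12-2 and 7.38 in WT for GH3.3.

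**Figure D2:**
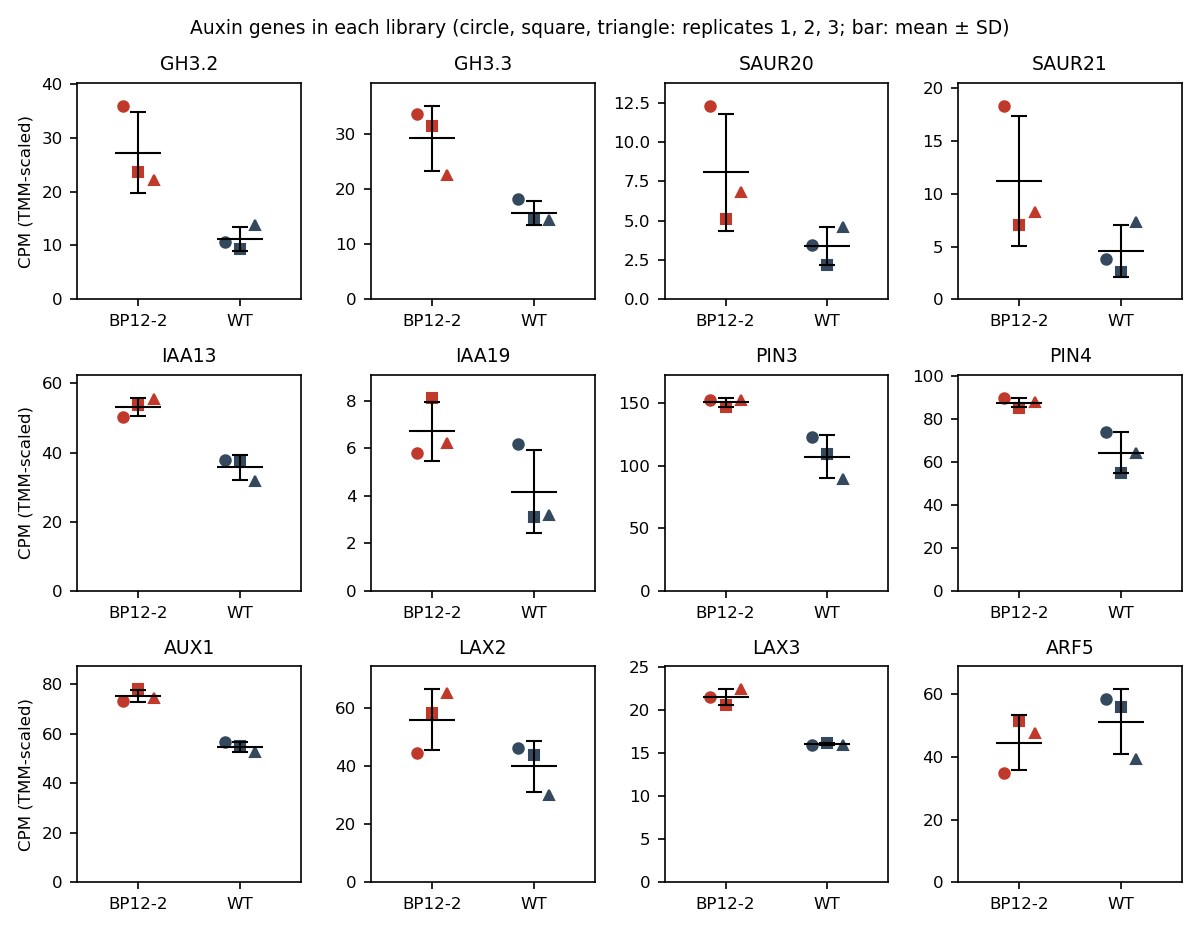
TMM-scaled CPM of 12 auxin genes in each library, BP12-2 left and WT right, with circles, squares and triangles for replicates 1, 2 and 3 and bars for the mean ± SD (n = 3). In GH3.2 the BP12-2 libraries sit at 35.8, 23.6 and 22.1 CPM and the WT libraries at 10.7, 9.37 and 13.7 CPM, without overlap, whereas SAUR21 and LAX2 overlap.

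SAUR genes encode short proteins, and those of the SAUR19 group promote cell expansion by holding back phosphatases that act on the proton pump. SAUR19 to SAUR24 lie close together on chromosome 5, between 5962773 and 5984308 (TAIR10.1). The first 60 coding bases show how alike they are, with capitals where a gene differs from SAUR20.
SAUR19: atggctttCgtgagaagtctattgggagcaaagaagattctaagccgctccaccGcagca
SAUR20: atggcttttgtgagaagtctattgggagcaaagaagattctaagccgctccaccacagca
SAUR21: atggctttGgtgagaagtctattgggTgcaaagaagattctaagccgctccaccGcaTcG
SAUR22: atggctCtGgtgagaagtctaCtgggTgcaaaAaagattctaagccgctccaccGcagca
SAUR23: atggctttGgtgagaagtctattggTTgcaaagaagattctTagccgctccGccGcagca
SAUR24: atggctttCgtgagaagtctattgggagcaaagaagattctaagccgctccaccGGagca
The stretches lie at chr5:5963246-5963305 (minus strand) for SAUR19, chr5:5966521-5966580 (minus strand) for SAUR20, chr5:5968527-5968586 (plus strand) for SAUR21, chr5:5974904-5974963 (minus strand) for SAUR22, chr5:5976030-5976089 (plus strand) for SAUR23 and chr5:5983840-5983899 (plus strand) for SAUR24. SAUR19 and SAUR24 differ at 13 of 273 coding bases. Of the 50-base words of SAUR19, 18.5% occur in another counted gene, against 0.573% to 7.11% for the other 5, so counts of single genes here are partly uncertain and their sum is given too.

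In each group the evening-like library had the highest sum of the cluster, and among libraries of like clock pattern the sums were higher in BP12-2. The 6 genes summed to 36.7, 15.0 and 18.1 CPM in BP12-2 replicates 1 to 3 and 8.76, 6.39 and 15.8 CPM in WT replicates 1 to 3. WT replicate 3 lay between BP12-2 replicates 2 and 3. BP12-2 replicate 1 lay above WT replicate 3, and BP12-2 replicates 2 and 3 lay above WT replicates 1 and 2.

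SAUR20 (AT5G18020, chromosome 5, 5966183 to 5966785, minus strand) was at 12.3, 5.12 and 6.81 CPM in BP12-2 and 3.48, 2.15 and 4.58 CPM in WT, groups that do not overlap, with a fold change of 2.37 (log2 1.24 ± 0.38, SE; edgeR adjusted p = 0.159). SAUR21 was at 18.3, 7.07 and 8.26 CPM in BP12-2 and 3.86, 2.60 and 7.35 CPM in WT, where WT replicate 3 reached the BP12-2 range (log2 fold change 1.25 ± 0.47, SE; edgeR adjusted p = 0.220). With the term for the evening-like libraries the log2 values were 1.29 ± 0.21 for SAUR20 (SE; edgeR adjusted p = 0.0242) and 1.32 ± 0.17 for SAUR21 (SE; edgeR adjusted p = 0.0169). Both moved with single libraries: without BP12-2 replicate 1 the log2 values were 0.83 for SAUR20 and 0.71 for SAUR21, and without WT replicate 3 they were 1.58 and 1.84. SAUR23 averaged 1.63 ± 0.583 CPM in BP12-2 and 1.13 ± 0.585 CPM in WT (SD, n = 3 each), and SAUR19, SAUR22 and SAUR24 stayed under the count filter at 2 to 18 counts a library in BP12-2 and 1 to 14 in WT. By CPM SAUR24 lay above WT in every BP12-2 library, while SAUR19 and SAUR22 overlapped. SAUR15, on chromosome 4, averaged 2.48 ± 1.03 CPM in BP12-2 and 2.11 ± 0.551 CPM in WT (SD, n = 3 each), a difference within the spread between libraries.

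**Figure D3:**
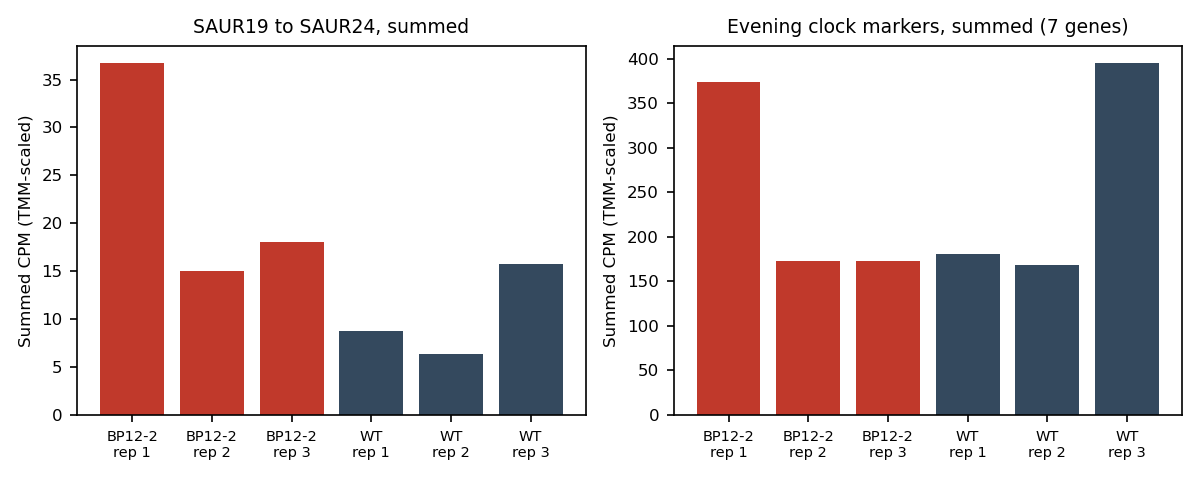
Left, TMM-scaled CPM summed over SAUR19 to SAUR24, and right, over 7 evening clock genes, with 1 bar per library and BP12-2 before WT. The evening sum is 374 CPM in BP12-2 replicate 1 and 395 CPM in WT replicate 3, the libraries that also have the highest SAUR sum of their group.

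The 4 activator ARFs listed here, among the factors that Aux/IAA proteins restrain, had values on both sides of 0. ARF7, which acts in lateral root formation and tropic growth, was the most abundant per kilobase at 22.3 CPM per kilobase in BP12-2 and 22.6 in WT. It was at 104, 96.0 and 97.0 CPM in BP12-2 and 96.7, 107 and 96.8 CPM in WT, a log2 fold change of -0.02 ± 0.09 (SE) whose sign turned with upper-quartile scaling and without replicate 2 of either group. ARF19, its close relative, was at 45.6, 36.9 and 38.8 CPM in BP12-2 and 34.4, 33.8 and 33.2 CPM in WT, above WT in every library, a log2 fold change of 0.26 ± 0.10 (SE; edgeR adjusted p = 0.243).

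ARF8, known from flower and hypocotyl development, was at 43.9, 51.9 and 49.6 CPM in BP12-2 and 44.8, 41.2 and 36.4 CPM in WT, a log2 fold change of 0.25 ± 0.11 (SE; edgeR adjusted p = 0.290). ARF5 (MONOPTEROS), which patterns the embryo and vasculature, was at 34.7, 51.3 and 47.4 CPM in BP12-2 and 58.2, 56.0 and 39.3 CPM in WT. Its evening-like library was the lowest of each group, and its log2 fold change was -0.20 ± 0.19 (SE; edgeR adjusted p = 0.633). ARF5, ARF7 and ARF8 overlapped between the groups.

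PIN carriers export auxin and set the direction of its flow, and PIN3 and PIN4 lay above WT in every BP12-2 library. PIN3 (AT1G70940, chromosome 1, 26742940 to 26746469, plus strand), a carrier of tropic growth, was the most abundant of the class per kilobase at 54.9 CPM per kilobase in BP12-2 and 39.0 in WT. It was at 153, 147 and 153 CPM in BP12-2 and 123, 109.8 and 89.3 CPM in WT, close together in BP12-2 and more spread in WT, with a fold change of 1.41 (log2 0.49 ± 0.13, SE; edgeR adjusted p = 0.120). PIN4, known from the root tip, was at 90.0, 85.4 and 87.9 CPM in BP12-2 and 74.2, 54.9 and 64.2 CPM in WT, a log2 fold change of 0.45 ± 0.12 (SE; edgeR adjusted p = 0.130).

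PIN7 was at 192, 97.9 and 125 CPM in BP12-2 and 90.9, 119.5 and 142 CPM in WT. The evening-like library was the highest of each PIN7 group, and the log2 fold change of 0.24 ± 0.26 (SE) was -0.07 without BP12-2 replicate 1. PIN2, the root carrier needed for gravitropism, was at 21.9, 22.6 and 24.9 CPM in BP12-2 and 28.7, 18.5 and 24.8 CPM in WT, a log2 fold change of -0.04 ± 0.16 (SE) that was 0.0970 without WT replicate 1.

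All 4 influx carriers had positive values, with little spread in AUX1 and LAX3. AUX1 (AT2G38120, chromosome 2, 15972876 to 15977180, plus strand), which loads auxin into root cells during gravitropism, was at 73.2, 77.9 and 74.5 CPM in BP12-2 and 56.7, 55.0 and 52.6 CPM in WT. The gap between the groups exceeded the range within either, with a fold change of 1.37 (log2 0.46 ± 0.08, SE; edgeR adjusted p = 0.0798). LAX3 (AT1G77690, chromosome 1, 29200417 to 29203418, minus strand), known from lateral root emergence, was at 21.4, 20.6 and 22.4 CPM in BP12-2 and 16.0, 16.1 and 16.0 CPM in WT, again with a gap wider than either range, and a fold change of 1.34 (log2 0.43 ± 0.09, SE; edgeR adjusted p = 0.0956).

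LAX2, a carrier of vein patterning and the most abundant of the family per kilobase at 29.8 CPM per kilobase in BP12-2 and 21.2 in WT, was at 44.6, 58.4 and 65.2 CPM in BP12-2 and 46.4, 43.7 and 29.9 CPM in WT. The evening-like library was the lowest of each group and the groups overlap (log2 fold change 0.49 ± 0.20, SE; edgeR adjusted p = 0.247). With the term for those libraries it was 0.50 ± 0.08 (SE; edgeR adjusted p = 0.0260). LAX1 was at 13.9, 13.1 and 10.4 CPM in BP12-2 and 11.1, 10.6 and 11.0 CPM in WT, which overlap, with a log2 fold change of 0.19 ± 0.14 (SE).

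Side by side, the median log2 fold change was 0.84 for 4 tested SAUR genes, 0.45 for 6 GH3 genes, 0.44 for 4 AUX1/LAX genes, 0.28 for 5 PIN genes, 0.23 for 19 Aux/IAA genes and 0.12 for 4 ARF genes. The SAUR median, over 4 genes of which SAUR23 passed the filter through BP12-2 alone, was 0.43 without BP12-2 replicate 1 and 1.30 without WT replicate 3. The GH3 median lay between GH3.5 at 0.10 and GH3.1 at 0.81, and GH3.1 also passed the filter through BP12-2 alone. At a mean of at least 5 CPM, which drops GH3.1, the GH3 median was 0.11. Relative to each gene's mean over the 6 libraries, the median of all 42 on the log2 scale was 0.20, 0.11 and 0.09 in BP12-2 replicates 1 to 3 and -0.02, -0.13 and -0.19 in WT replicates 1 to 3. The same median for the AUX1/LAX genes was 0.20, 0.22 and 0.24 in BP12-2 and -0.12, -0.16 and -0.25 in WT. For the SAUR genes it was 0.92, -0.03 and 0.27 in BP12-2 and -0.49, -0.76 and 0.15 in WT, so that WT replicate 3 lay inside the BP12-2 range there. WT replicate 1, the WT library nearest to BP12-2 over all 42, also had the highest root marker sum in WT, 309 CPM. In BP12-2 the order was otherwise, and replicate 1 had the highest median of the 42 with the lowest root marker sum, 274 CPM. SCR, PHO1 and SHR, the most abundant root markers, weigh most in that sum, and single markers differed. Within BP12-2, EXPA7, COBL9, PLT1 and NRT2.1 were highest in replicate 1. RHD6, SCR, SHR, PLT2, CASP1 and PHO1 were lowest there, and WOX5 lay between. Whether root content and these values go together was not tested.

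**Figure D4:**
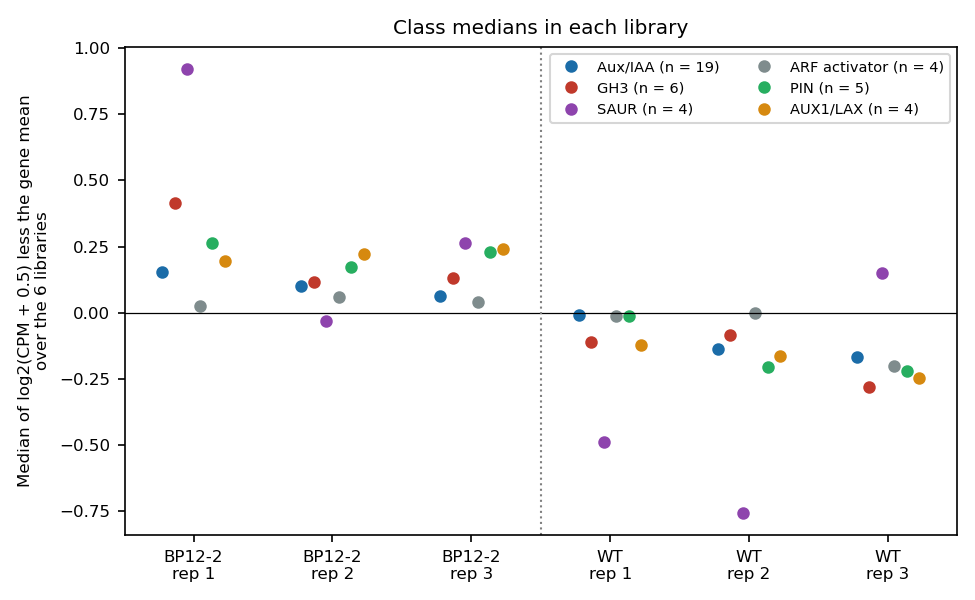
Median over the tested genes of each class of log2(CPM + 0.5) less the gene's mean over the 6 libraries, with BP12-2 libraries left of the dotted line and WT libraries right of it; each point is 1 class in 1 library. SAUR points span from -0.76 in WT replicate 2 to 0.92 in BP12-2 replicate 1, and ARF points from -0.20 in WT replicate 3 to 0.06 in BP12-2 replicate 2.

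Other genes of the pathway, in lists by function, gave 0 calls by the edgeR quasi-likelihood test, beside 0.0669% of all genes. Over all genes 50.8% had positive log2 fold changes, with a median of 0.01. Receptors of the TIR1/AFB family had negative values in 5 of 6, with a median log2 fold change of -0.08. AFB3, with the smallest p of the receptors, averaged 86.7 ± 2.38 CPM in BP12-2 and 99.6 ± 9.05 CPM in WT (SD, n = 3 each). Auxin synthesis genes were positive in 5 of 8 tested, with a median of 0.37. YUC3, a flavin monooxygenase of auxin synthesis, averaged 3.59 ± 0.260 CPM in BP12-2 and 1.61 ± 0.713 CPM in WT (SD, n = 3 each), above WT in every library (edgeR adjusted p = 0.120). Oxidation and hydrolysis genes, pooled in this list, were negative in 4 of 5, with a median of -0.10. The oxidation genes DAO1 and DAO2 had log2 fold changes of 0.34 and -0.03. The hydrolysis genes ILR1, ILL2 and IAR3 were at -0.38, -0.10 and -0.40. ILR1, an amidohydrolase that frees auxin from conjugates, averaged 20.3 ± 0.934 CPM in BP12-2 and 26.5 ± 4.38 CPM in WT (SD, n = 3 each; edgeR adjusted p = 0.206).

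The other ARFs, repressors and ARF6 among them, were positive in 5 of 8, with a median log2 fold change of 0.02. ARF3, a factor of leaf and flower polarity, averaged 26.6 ± 1.53 CPM in BP12-2 and 18.9 ± 2.38 CPM in WT (SD, n = 3 each; edgeR adjusted p = 0.113). Other transport genes were positive in 6 of 10, with a median of 0.06. PIN5, a carrier of the endoplasmic reticulum, averaged 3.21 ± 0.576 CPM in BP12-2 and 1.41 ± 0.380 CPM in WT (SD, n = 3 each; edgeR adjusted p = 0.0977). Auxin-induced LBD and HD-ZIP factor genes were positive in 3 of 6, with a median of 0.04, and LBD18, a factor in lateral root formation, averaged 2.15 ± 0.425 CPM in BP12-2 and 1.15 ± 0.483 CPM in WT (SD, n = 3 each; edgeR adjusted p = 0.222).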

How the data were processed

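The authors deposited a table of raw counts per gene for 6 libraries. Per the submitters' processing notes the tools include Bowtie, HTSeq and edgeR and the build is TAIR9; the sources used here give neither versions nor the use of strand in counting. Gene positions, exon lengths and sequences are from the RefSeq TAIR10.1 genome and annotation, which holds 31786 of the 32313 gene codes, so lengths may differ from those counted. No depth beyond the library totals was available, and the 10 auxin genes under the filter were tested only in the fit without a filter, except GH3.4, which had no counts.

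Counts were filtered by filterByExpr (minimum count 10, minimum total 15), which left 19436 genes, scaled by TMM factors (0.972 to 1.02) and tested with the two-sided quasi-likelihood test of edgeR 4.0.16 in R 4.3.3, 3 libraries per group, with Benjamini-Hochberg adjustment over all genes at 0.05. DESeq2 1.42.0, limma 3.58.1 and the edgeR exact test were alternatives, as were other scalings and filters, each library left out, the replicate number as a block, a term for the 2 evening-like libraries, and the other 4 libraries alone. The count of genes above WT in every library was recomputed under such settings, chosen after seeing the data. The fits were tested on simulated data with 200 changed genes. The closest libraries of 15 pairs differed by a chi-square of 10.9 per degree of freedom, so none was taken as a repeat of another.

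The genes and lists were chosen with earlier results of these data known, and so were the 2 evening-like libraries. Values in every library are given for up to 4 members per class with the largest fold change at a mean of at least 5 CPM, the most abundant member per kilobase, and every member of classes of 5 or fewer genes. In the other pathway lists the gene with the smallest p is named. Other members named were chosen after their values were seen. Values of 1 PIN gene are not reported here; it is included in the counts and medians of its class.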

Additional observations from a re-analysis of the deposited data

How the results depend on the processing

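By the edgeR quasi-likelihood test 13 genes were called over the whole table. The number was 56 with no filter on low counts, 620 by DESeq2, 821 by the edgeR exact test, 22 by limma voom, 992 with the term for the evening-like libraries, 41 in the other 4 libraries alone, and 0 to 56 with single libraries left out. Of the auxin genes 0 were called, against 5 by DESeq2, 5 by the exact test, 9 with the term and 1 in the other 4 libraries alone, and 0 with any single library left out. With the replicate number as a block 0 genes and 0 auxin genes were called. Deviations of same-numbered libraries from their group means correlated at -0.325, 0.066 and -0.331, so the numbers were not taken as pairs.

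The median log2 fold change of the GH3 genes, 0.45, was 0.11 when a mean of at least 5 CPM was required, which drops GH3.1, and 0.30 in the other 4 libraries alone. With single libraries left out, the median ran from 0.43 to 1.30 for SAUR genes, 0.36 to 0.51 for GH3 genes, 0.37 to 0.45 for AUX1/LAX genes, 0.31 to 0.43 for PIN genes, 0.15 to 0.31 for Aux/IAA genes and 0.06 to 0.15 for ARF genes; the SAUR median was 1.25 at a mean of at least 5 CPM, and the ARF median 0.04 in the other 4 libraries alone. The count of auxin genes above WT in every library, again with single libraries left out, ran from 17 to 25, the highest without WT replicate 1. The share of all genes then ran from 15% to 20.2%, since fewer libraries separate more easily. With all 6 libraries scaled by library totals alone the count was 13 of the 42, beside 9.82% of all genes. Without BP12-2 replicate 1 the log2 values of IAA9, LAX1, ARF19 and ARF5 were 0.0943, 0.094, 0.165 and -0.0494, and that of LAX2 was 0.319 without WT replicate 3. The cause of the other shifts was not tested.

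Among the members named by rule the sign turned for 6, of which 5 lay within 0.10 of 0 and PIN7 was at 0.24. GH3.6 was at -0.0272 with library totals alone, -0.001 with no filter, -0.0103 by limma voom, -0.012 with the block, -0.0096 with the term and -0.165 in the other 4 libraries alone, and ran from -0.158 to 0.0888 with single libraries left out. GH3.5 was at -0.0562 and PIN2 at 0.0369 in the other 4 libraries alone, and ARF7 at 0.0024 with upper-quartile scaling. With single libraries left out the ranges were -0.0517 to 0.168 for GH3.17, -0.0532 to 0.0325 for ARF7, -0.201 to 0.097 for PIN2 and -0.0724 to 0.43 for PIN7. For the other 19 members named by rule, no direction turned under any alternative run. Outside the rule, IAA10 and IAA26 turned positive with upper-quartile scaling, at 0.0119 and 0.0137. IAA11 turned negative without WT replicate 1, at -0.0603, and IAA27 without WT replicate 3, at -0.0172. The 10 auxin genes under the filter had at most 18 counts in any library, and low expression and depth were not separated for them.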
